A study of Mus musculus with 8 samples.

Results

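MHC class I and interferon response genes were followed as a set of 36 members in RNA from 2 regions of the mouse embryonic head. The members were chosen by name, and all 36 were found among the 23420 genes of the deposited table. They comprise the class I chains, the genes that load peptide onto them, the interferon receptor, the factors that carry its signal, cytoplasmic RNA sensors and interferon-stimulated effectors. Tissue came from wild type C57BL/6 embryos at E12.5, with no transgene or treatment named in the labels. Of the 8 libraries, 4 came from early migrating cranial mesenchyme (EMM) and 4 from supraorbital mesenchyme (SOM), the tissue above the eye. Each library was made from a pool of 4 to 5 embryos, freed from surface ectoderm and brain after dispase (3 U/ml, 37 C, 10 min). Whether the pools of both regions were cut from shared embryos is not stated in the labels.

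EMM libraries held 12.7 to 22.4 M gene-assigned reads and SOM libraries 16.8 to 33.7 M, and 3 reads corresponded to 1.91 normalized counts in the deepest library and 5.42 in the shallowest. A gene was called when its limma adjusted p fell below 0.05. The mesenchymal markers Prrx1 and Pdgfra were abundant in all 8 libraries, with 12837 ± 660.1 and 11332 ± 772 normalized counts in EMM (mean ± SD, n = 4). In SOM they stood at 13975 ± 610 and 8572 ± 474 (n = 4). Prrx1 was called higher in SOM (limma adjusted p = 0.0356) and Pdgfra higher in EMM (limma adjusted p = 7.74e-06). Some libraries stood apart. EMM3 had the highest summed level of red blood cell markers (420139, against 148724 to 264532 in the other EMM libraries). SOM4 had the highest summed level of 7 immediate early genes (37038, against 8366 to 17846 in the other SOM libraries).

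Class I molecules are formed by a heavy chain, such as that of H2-K1 or H2-D1, with the light chain encoded by B2m. They display peptides that the proteasome cuts and the Tap1-Tap2 transporter moves into the endoplasmic reticulum. Type I interferons act through the Ifnar1-Ifnar2 receptor, after which a complex that holds Stat2 and Irf9 binds a DNA element called ISRE. A different element, called GAS, is best known from responses to interferon gamma. Nlrc5 and NF-kappa B act at class I promoters. Many class I and interferon-stimulated genes are also expressed at a low level without infection, and microglia and other macrophages already populate the head at this stage.

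Promoter stretches are shown here because members of a single gene cluster differed in direction and in these letters. Whether the letters bear on the direction was not tested. Windows of 300 bases, 250 before and 50 after the start, were available in RefSeq (GRCm38.p6) for 30 of the 36 members. The ISRE core, searched on both strands as a pair of GAAA repeats with any 2 bases between them, was present in windows of 12 of those 30 members (40.0%), against 3.99% of the 27025 genes with a window. Searched as TTCNNNGAA, the GAS core was present in 7 of 30 members (23.3%) and in 9.55% of all genes. Ifit2, Ifit3 and Ifit1 are neighbours on chromosome 19 that encode RNA-binding antiviral proteins. Each sequence below is written 5′ to 3′ along its gene, and capitals mark the ISRE core, on either strand. The stretches of Ifit1 (chr19:34640765-34640833) and Ifit3 (chr19:34583353-34583436), both on the plus strand, each held 2 matches. Neither of the windows at the 2 starts of Ifit2 held an ISRE match, and the 100 bases before each are given (chr19:34550594-34550693 and chr19:34550988-34551087, plus strand).
Ifit1: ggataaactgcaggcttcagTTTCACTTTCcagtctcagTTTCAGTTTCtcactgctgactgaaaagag
Ifit3: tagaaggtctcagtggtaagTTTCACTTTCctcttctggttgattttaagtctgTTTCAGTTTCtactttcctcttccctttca
Ifit2 first start: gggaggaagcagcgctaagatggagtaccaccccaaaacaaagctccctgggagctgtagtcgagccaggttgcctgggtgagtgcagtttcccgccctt
Ifit2 second start: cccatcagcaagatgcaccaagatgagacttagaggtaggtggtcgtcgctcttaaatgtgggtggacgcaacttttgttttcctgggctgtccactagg

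The next stretches belong to 4 further members with an ISRE match, shown because they span the range of differences measured. They are Gbp2 (chr3:142620584-142620633, plus strand), Isg15 (chr4:156200855-156200916, minus strand), B2m (chr2:122147528-122147577, plus strand) and Ifitm2 (chr7:140955978-140956027, minus strand). The 3 matches of Isg15 overlap each other and are capitalised as a single run. A match is a description of letters and not a bound site.
Gbp2: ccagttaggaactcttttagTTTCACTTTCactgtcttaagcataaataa
Isg15: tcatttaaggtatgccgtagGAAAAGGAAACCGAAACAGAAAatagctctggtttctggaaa
B2m: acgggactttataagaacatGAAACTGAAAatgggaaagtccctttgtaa
Ifitm2: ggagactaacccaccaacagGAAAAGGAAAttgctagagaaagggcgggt

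H2-K1 (chr17:34000408-34000478, minus strand) and H2-D1 (chr17:35262903-35262973, plus strand) are shown for the letters they share, since both were higher in EMM. The first run in capitals is a kappa B element, whose letters were searched on both strands and found in 10 of the 32851 windows (0.0304%). The second is a class I form of the ISRE, searched in the same way, chosen after these stretches were seen and found in 11 windows (0.0335%). The stretches were identical at 70 of 71 bases, and among the members with a window only these 2 genes held either run in exactly these letters. Other forms of the kappa B element were not searched, so the counts do not show how common such elements are.
H2-K1: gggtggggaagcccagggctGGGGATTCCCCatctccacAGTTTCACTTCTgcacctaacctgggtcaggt
H2-D1: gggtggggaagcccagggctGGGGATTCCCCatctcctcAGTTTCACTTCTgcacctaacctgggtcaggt

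Most members were higher in EMM. Of the 35 members that passed the filter on low values, 27 were called higher in EMM (77.1%), where 36.1% of all 14249 tested genes were, and the median difference was -1.04 against 0.01 over all genes (log2, SOM minus EMM). Irf3, Ifit2, Ifitm1 and Ifitm2 were called higher in SOM (11.4%, against 36.0% of all genes). Tap1, Psmb10, Irf1 and Xaf1 were not called, and Nlrc5 did not pass the filter. At least 2-fold differences were called in 18 members toward EMM, against 11.0% of all genes, and in 0 toward SOM, against 5.19%. Every EMM library lay above every SOM library in 26 of the 36 members, against 33.2% of tested genes. The reverse held in 4 members, against 32.9%.

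Low levels bear on those counts. The filter asked for 10 normalized counts in at least 4 libraries. Ifit1, Usp18, Mx1 and Gbp2 reached 10 normalized counts in all 4 EMM libraries and in no SOM library, so they had to differ. Ifit3 and Rsad2 reached it in all 4 EMM libraries but in only 1 and 2 SOM libraries. For each of these 6 genes the adjusted p given below comes from the fit with no filter on low values. Without these 6, 21 of 29 tested members were called higher in EMM. The 36.1% of all tested genes still includes genes that passed in this way. Among the 24 members with a mean of at least 50 normalized counts over the 8 libraries, 16 were called higher in EMM (66.7%, against 37.2% of the 12228 such genes) and 4 higher in SOM (16.7%, against 37.4%). Their median difference was -0.36, and the same 4 genes were higher in SOM. Of these 24, 8 were called at least 2-fold higher in EMM, against 11.0% of all tested genes. Among the 11 tested members with a lower mean, 10 were. Of those 11, however, 6 are the genes named above that reached the filter level in all EMM libraries but not in all SOM libraries. No share over all genes with such a mean is set beside that count. Every EMM library lay above every SOM library in 16 of the 24, against 33.2% of all tested genes. The reverse held in 4, against 32.9%.

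**Figure D1:**
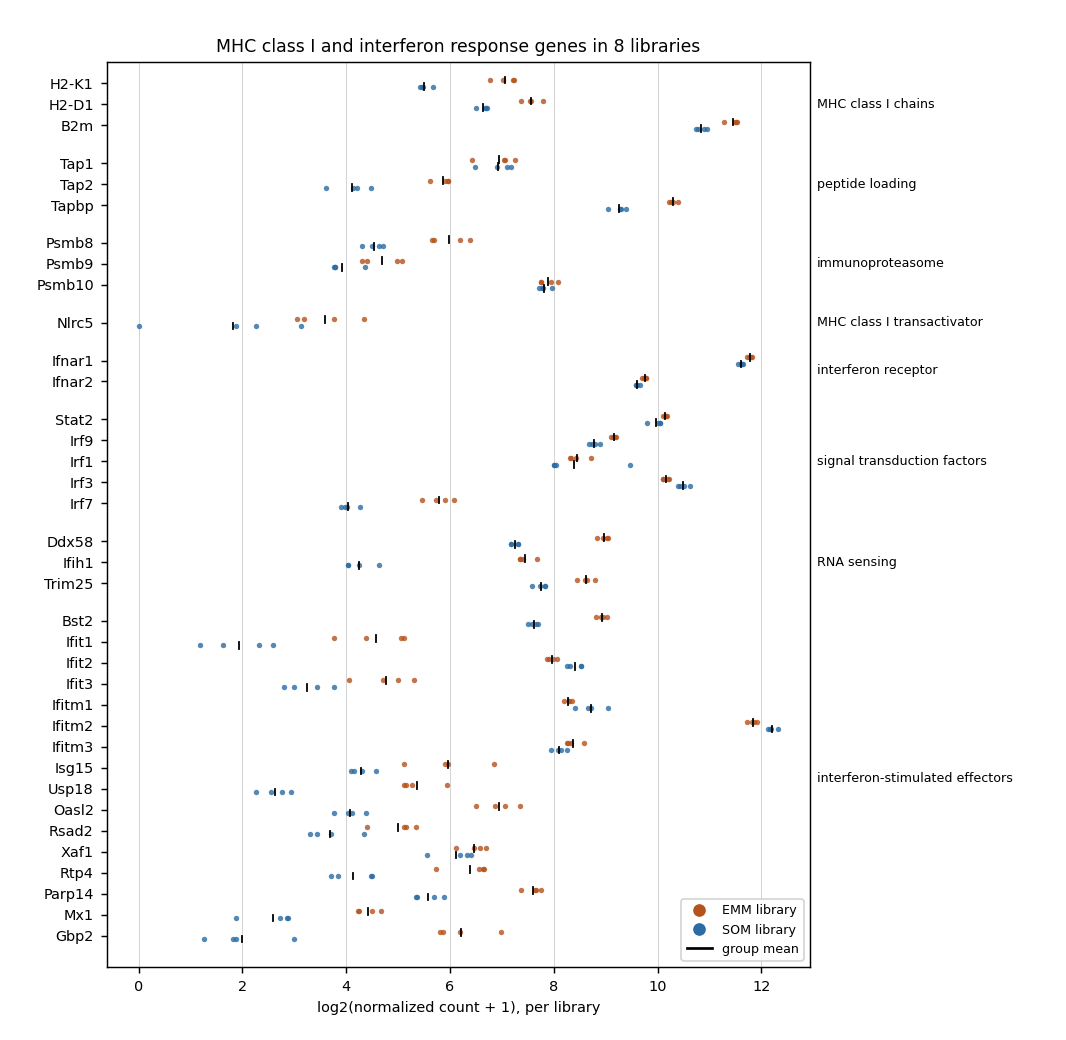
Normalized count of each member in the 4 EMM and 4 SOM libraries (points, as log2 of the normalized count + 1) with group means (bars), ordered by role. In 26 of the 36 members all EMM points lie above the SOM points, and in Irf3, Ifit2, Ifitm1 and Ifitm2 the order is reversed.

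**Figure D2:**
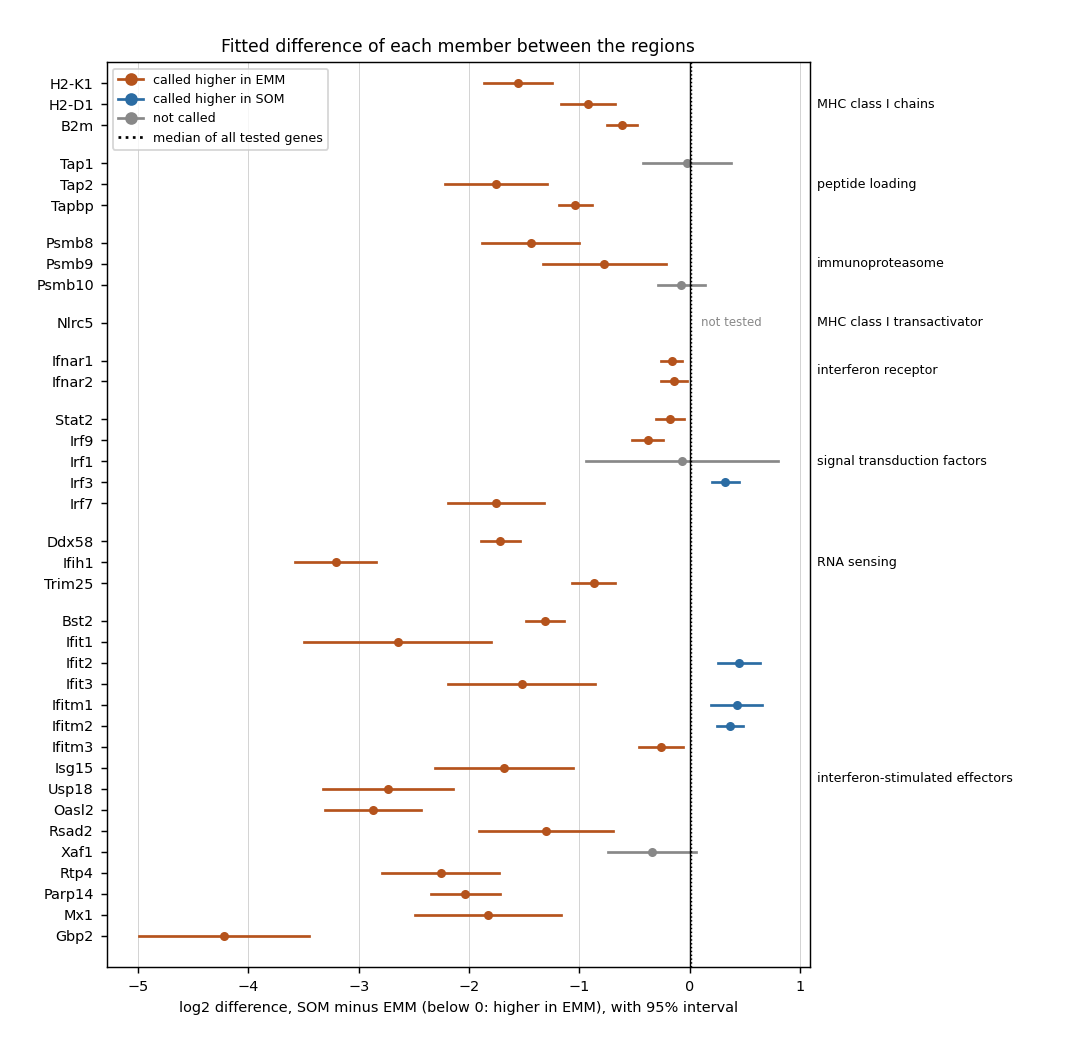
Fitted log2 difference, SOM minus EMM, of each tested member (points) with its 95% interval (lines), ordered by role and coloured by call. Values below 0 are higher in EMM; Gbp2 at -4.22 and Ifih1 at -3.21 lie farthest from 0, and the 4 members called higher in SOM lie between 0.33 and 0.45.

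Markers of other cell types also differed between the regions. Over all tested genes, 36.1% were called higher in EMM and 36.0% higher in SOM. All 20 macrophage markers were called higher in EMM, with differences from -2.94 to -1.11, and their summed level was 19006 to 23381 normalized counts in EMM and 4756 to 5185 in SOM. Csf1r, the receptor that macrophages need, stood at 3043 ± 232 and 638 ± 50.1 (n = 4 each), and the leukocyte antigen gene Ptprc at 158 ± 24.6 and 45.5 ± 8.41. Of 12 endothelial markers 9 were called higher in EMM and 1, Pecam1, higher in SOM (1812 ± 171 and 2139.7 ± 164). The summed endothelial level was 25573 to 32396 in EMM and 15293 to 18832 in SOM. Summed lymphoid markers overlapped (174 to 229.5 in EMM, 190.1 to 218 in SOM), 2 of those 10 genes were at 0 in all 8 libraries, and the T cell gene Cd3e was among them. The sums of other lists were higher in EMM without overlap, but abundant genes weigh most in a sum. Tested surface ectoderm markers ran from -2.89 to 2.18, with a median of 0.50, toward SOM. Brain progenitor markers ran from -3.07 to 2.81 (median -0.35) and mesenchyme markers from -2.22 to 1.04 (median -0.48). Of 12 pericyte and smooth muscle markers 10 were called higher in EMM and 2 higher in SOM, with sums of 66846 to 75057 in EMM and 15961 to 18904 in SOM. Of 9 tested red blood cell markers 8 were called higher in EMM and none higher in SOM (sums 148724 to 420139 and 79858 to 96112). Of 8 tested surface ectoderm markers 2 were called higher in EMM, none higher in SOM and 6 not (sums 771 to 1084 and 271 to 503), while the keratin gene Krt5 ranged from 3.07 to 192 in EMM and from 43.4 to 139.6 in SOM. Of 5 tested brain progenitor markers 3 were called higher in EMM and 1 higher in SOM (sums 7646 to 8978 and 3397 to 3580.0). Of 10 mesenchyme markers 6 were called higher in EMM and 4 higher in SOM (sums 687626 to 803047 and 282619 to 328083). Ifih1 and Gbp2 differed by more than any macrophage marker, and 10 members called higher in EMM differed by less than all 20 of them. Differences reached -3.42 among the endothelial markers and -4.94 among the pericyte and smooth muscle markers. Ifih1 lay inside both of those ranges and Gbp2 inside the latter. The part that these cells had in the members' differences was not tested. In tissue RNA of this kind, fewer cells of a type and less RNA per cell cannot be told apart.

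The 3 class I chain genes were all higher in EMM, the heavy chains by more than the light chain. H2-K1, on chromosome 17 (34000347 to 33996017 on the minus strand, GRCm38), stood at 150.2, 128, 109 and 148 normalized counts in EMM1 to EMM4 and at 42.8, 42.0, 49.8 and 43.4 in SOM1 to SOM4. The lowest EMM library was thus more than 2-fold above the highest SOM library, and the ratio of means was 3.01 (log2 difference -1.56, SE 0.15, limma adjusted p = 7.95e-08). H2-D1 stood at 165, 184, 187 and 219 in EMM and at 101, 104, 89.4 and 102 in SOM, with a ratio of 1.91 and no overlap (-0.92, SE 0.12, limma adjusted p = 2.65e-06). Heavy chain genes are near-identical copies of each other, so the split of reads between H2-K1, H2-D1 and their relatives is uncertain.

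B2m, whose product pairs with the class I heavy chains, stood at 2913, 2952, 2470.3 and 2885 in EMM and 1988, 1892, 1719 and 1749.7 in SOM. EMM3 was the lowest EMM library yet lay above all SOM libraries, and the fitted difference was -0.61 (SE 0.06, limma adjusted p = 3.33e-07, ratio of means 1.53). Of 13 other H2 class I genes in the table, 5 passed the filter. Of these, 3 were called higher in EMM (60.0%, against 36.1% of all tested genes) and none higher in SOM (against 36.0%).

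Among the peptide loading genes, the 2 genes of the transporter differed. Tap2 stood at 61.3, 61.5, 48.1 and 59.2 in EMM and 21.4, 11.2, 16.6 and 17.4 in SOM, without overlap (-1.76, SE 0.22, limma adjusted p = 2.07e-06). Tap1 stood at 151, 130.1, 84.7 and 132 in EMM and 118, 88.9, 137 and 143 in SOM. The SOM range lay within the EMM range, and the difference of -0.02 had a 95% interval from -0.43 to 0.38 (limma adjusted p = 0.910). As a description, for a pair chosen after its values were seen, the log2 ratio of Tap2 to Tap1 within each library fell by 1.80 from EMM to SOM. Tapbp, which bridges the transporter and the empty class I molecule, stood at 1251 ± 64.6 in EMM and 611 ± 58.3 in SOM (n = 4 each; -1.04, SE 0.07, limma adjusted p = 2.00e-09).

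Immunoproteasome subunits replace 3 catalytic subunits of the standard proteasome and change the peptides it releases. Psmb8 stood at 72.6, 50.6, 49.1 and 82.1 in EMM and 23.9, 25.2, 21.7 and 18.7 in SOM, without overlap (-1.44, SE 0.21, limma adjusted p = 1.12e-05). Psmb9 stood at 32.7, 30.7, 18.8 and 20.2 in EMM and 12.6, 19.6, 12.8 and 12.7 in SOM. SOM2 lay within the EMM range, and the difference of -0.77 (SE 0.26, limma adjusted p = 0.0148) was not called without EMM1 (adjusted p = 0.0580) or without EMM2, EMM3 and SOM4 (0.0502). Psmb10, with 237 ± 26.8 in EMM and 224 ± 16.3 in SOM, was not called (-0.07, 95% interval -0.29 to 0.14, limma adjusted p = 0.515). Psmb9 and Tap1 lie on opposite strands of chromosome 17 and share 212 exonic bases. Whether counting used the strand is not given, so reads from that stretch cannot be told apart, and 16 of the 36 members share exonic bases with some other annotated gene.

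The 3 standard subunits went the other way. Psmb5 stood at 1567, 1647, 1649.6 and 1691 in EMM and 2118, 2172, 2327 and 2112 in SOM (0.41, limma adjusted p = 1.80e-06). Psmb6 (0.49, limma adjusted p = 1.38e-07) and Psmb7 (0.30, limma adjusted p = 1.64e-05) were also higher in SOM. Per kilobase of transcript, Psmb8 reached 2.15% ± 0.551 of Psmb5 in EMM and 0.567% ± 0.0762 in SOM (SD, n = 4 each), so transcripts of the immune form were a small minority in both regions. Psmb9 reached 0.416% ± 0.130 of Psmb6 in EMM and 0.165% ± 0.0377 in SOM. The highest share was that of Psmb10, with 5.83% ± 0.806 of Psmb7 in EMM and 4.46% ± 0.246 in SOM. For all 3 pairs every EMM library lay above every SOM library (exact two-sided permutation p = 0.0286 each and after adjustment over the 3 pairs, the smallest that 4 against 4 libraries can give). Since all 3 standard subunits were higher in SOM, a share could separate without a difference in the immune subunit. Psmb10 itself was not called, and the Psmb9 groups overlapped.

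**Figure D3:**
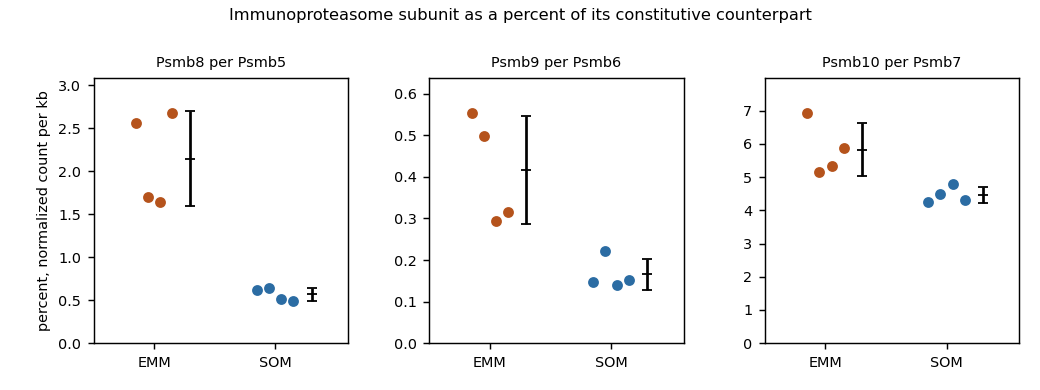
Each immunoproteasome subunit as a percent of the standard subunit it replaces, from normalized counts per kilobase, in 4 EMM and 4 SOM libraries (points) with mean and SD (bars). The shares lie between 1.64% and 2.68% in EMM and between 0.489% and 0.640% in SOM for Psmb8, and the groups do not overlap in any panel.

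Nlrc5, a transactivator of class I genes, was close to the limit of detection. It stood at 19.4, 12.7, 7.32 and 8.08 in EMM and at 0, 7.70, 3.83 and 2.67 in SOM, from 39 reads in EMM and 21 in SOM altogether. EMM3 lay below SOM2, so the groups overlapped. Without the filter on low values the difference was -1.77 (SE 0.55, limma adjusted p = 0.0135 over 18943 genes), and the authors' deposited table gives it an adjusted p of 0.0214.

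The interferon receptor was expressed at a high level and differed little. Ifnar1, the chain that binds Tyk2, stood at 3613, 3456, 3550.1 and 3366 in EMM and 3127, 3206, 3009 and 3164 in SOM. The regions did not overlap, although the ratio of means was only 1.12 (-0.16, SE 0.05, limma adjusted p = 0.00463). Ifnar2, the chain that binds Jak1, stood at 859.8 ± 21.04 in EMM and 780.2 ± 18.4 in SOM (n = 4 each; -0.14, SE 0.05, limma adjusted p = 0.0288). That call was lost with upper quartile scaling (adjusted p = 0.0922) and without EMM3 (0.0686), EMM4 (0.0707), SOM2 (0.0660) or EMM2, EMM3 and SOM4 together (0.140). The ligands were all but undetected. Of 18 interferon ligand genes 13 had no read in any library, Ifnb1 among them, and no ligand had more than 3 reads in a library.

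Factors that carry the signal moved in different directions. Irf7, which amplifies interferon production and is itself interferon-stimulated, stood at 66.4, 52.4, 42.9 and 59.2 in EMM and 15.1, 18.2, 14.7 and 14.02 in SOM. The lowest EMM library was more than 2-fold above the highest SOM library (-1.76, SE 0.21, limma adjusted p = 1.09e-06). Irf3, the related factor that is present before any interferon signal, was higher in SOM. It stood at 1180.4, 1106, 1199 and 1105 in EMM and 1463, 1389, 1573 and 1336 in SOM, without overlap (0.33, SE 0.06, limma adjusted p = 0.000125).

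Irf9, the DNA-binding partner of Stat2, stood at 568 ± 14.9 in EMM and 437 ± 28.5 in SOM (n = 4 each; -0.38, SE 0.07, limma adjusted p = 0.000101). Stat2, with 1131 ± 22.3 and 1003 ± 79.5, was called higher in EMM (-0.18, SE 0.06, limma adjusted p = 0.0169), and the call was lost without SOM4 (0.0532), with upper quartile scaling (0.0528) and without EMM2, EMM3 and SOM4 (0.0876). Irf1, the factor induced through GAS elements, hinged on a single library. It stood at 318, 342, 322 and 419 in EMM and at 257, 255, 264 and 704 in SOM, where SOM4 was the highest of all 8. With SOM4 the difference was -0.07 (SE 0.36, limma adjusted p = 0.878), and without it -0.43 and called higher in EMM (adjusted p = 0.00136). SOM4 also had the highest summed immediate early genes, and their part in the level of Irf1 was not tested.

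All 3 RNA sensing genes were higher in EMM. Ifih1, which encodes the sensor MDA5 for long double-stranded RNA, stood at 161, 204, 168 and 163 in EMM and 23.9, 15.4, 15.3 and 18.0 in SOM. The ratio of means was 9.59, and only Gbp2 had a larger fitted difference among the members (-3.21, SE 0.17, limma adjusted p = 1.18e-10). Ddx58, which encodes the sensor RIG-I for RNA ends, differed less, with 526, 455, 490.3 and 518 in EMM and 159, 143, 144 and 157 in SOM (-1.72, SE 0.08, limma adjusted p = 3.90e-11). Trim25, a ubiquitin ligase that acts on RIG-I, stood at 393 ± 38.7 and 214 ± 16.8 (n = 4 each; -0.87, SE 0.09, limma adjusted p = 3.90e-07).

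The 3 members of the Ifit cluster had fitted differences of both signs. Ifit1 stood at 33.7, 19.9, 12.54 and 32.3 in EMM and 5.04, 2.10, 1.28 and 4.01 in SOM. It was low in both regions and without overlap (-2.65, SE 0.40, limma adjusted p = 4.60e-05 with no filter; -1.82 with a pseudocount of 5). Ifit3 stood at 38.8, 25.3, 15.7 and 31.0 in EMM and 12.6, 9.80, 7.02 and 6.01 in SOM (-1.52, SE 0.31, limma adjusted p = 0.000743 with no filter). Ifit2 was higher in SOM, with 266, 251, 240.4 and 233 in EMM and 369, 365, 303 and 317 in SOM (0.45, SE 0.09, limma adjusted p = 0.000310). In this cluster the stretches of Ifit1 and Ifit3 hold 2 ISRE matches each and the windows of Ifit2 none. Only 250 bases before and 50 after each listed start were searched, for exact matches. An ISRE of Ifit2 elsewhere or in another form would be missed. The only match of Ifit2 to either core was a GAS core 241 bases before the first start.

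The Ifitm cluster on chromosome 7 encodes membrane proteins that hinder viral entry. Ifitm2 stood at 3691, 3882, 3394 and 3634 in EMM and 4605, 4685, 5123 and 4444 in SOM, all SOM libraries being higher (0.37, SE 0.05, limma adjusted p = 1.54e-05). Ifitm1 stood at 312, 293, 325 and 312 in EMM and 403, 419, 529.8 and 339 in SOM (0.43, SE 0.11, limma adjusted p = 0.00243). Ifitm3 leaned the other way with 381, 319.9, 309 and 306 in EMM and 305, 245, 270.0 and 280.5 in SOM. Its ranges nearly touched, and the call (-0.26, SE 0.09, limma adjusted p = 0.0228) was lost without EMM1 (adjusted p = 0.0976) or SOM2 (0.0811). The Ifitm genes are similar in sequence, so the split of reads between them is uncertain, as it is among the Ifit genes. A window with an ISRE match did not go with a single direction, since Ifitm2 has one and was higher in SOM.

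Among the remaining effectors, Gbp2, a GTPase that attacks the membranes around intracellular pathogens, had the highest ratio of means among the members, on few SOM reads. It stood at 125, 72.3, 57.5 and 55.2 in EMM and 2.52, 1.399, 7.02 and 2.67 in SOM, from 258 and 19 reads. The ratio of means was 22.8, and the fitted difference was -4.22 (SE 0.36, limma adjusted p = 2.15e-07 with no filter), or -3.26 with a pseudocount of 5. Oasl2, a relative of the enzymes that activate RNase L, stood at 163, 116, 89.9 and 132 in EMM and 16.4, 12.6, 19.8 and 15.4 in SOM (-2.87, SE 0.20, limma adjusted p = 3.33e-09). Rtp4, a chaperone that is also an interferon-stimulated gene, stood at 93.0, 99.4, 52.3 and 98.3 in EMM and 21.4, 21.7, 13.4 and 12.02 in SOM (-2.26, SE 0.25, limma adjusted p = 5.70e-07). In each of these 3 genes the lowest EMM library was more than 2-fold above the highest SOM library.

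The ubiquitin-like modifier Isg15 and Usp18, the protease that removes it and that also damps receptor signalling, were both higher in EMM. Isg15 varied widely there, with 114, 61.5, 33.5 and 59.2 in EMM against 22.7, 18.9, 15.96 and 16.7 in SOM (-1.68, SE 0.29, limma adjusted p = 0.000126). Usp18 stood at 60.3, 34.3, 33.5 and 37.7 in EMM and 3.78, 4.90, 5.74 and 6.68 in SOM (-2.74, SE 0.28, limma adjusted p = 7.78e-07 with no filter; -2.15 with a pseudocount of 5). EMM1 was the highest library for both genes.

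Parp14, an ADP-ribosyltransferase, stood at 194 ± 21.2 in EMM and 47.1 ± 8.85 in SOM (n = 4 each; -2.03, SE 0.15, limma adjusted p = 4.79e-09). Bst2 (tetherin), which holds budding virus at the cell surface, stood at 484 ± 30.2 and 194 ± 11.0 (-1.31, SE 0.08, limma adjusted p = 6.35e-10). Mx1, an antiviral GTPase whose gene is known to be defective in most laboratory strains including C57BL/6, stood at 20.5 ± 3.196 and 5.24 ± 1.75 (-1.83, SE 0.31, limma adjusted p = 0.000107 with no filter). Rsad2 (viperin), a radical SAM enzyme, stood at 39.9, 34.3, 33.5 and 20.2 in EMM and 8.81, 9.80, 12.1 and 19.4 in SOM. Its groups came within a single normalized count of each other but did not overlap (-1.30, SE 0.29, limma adjusted p = 0.00122 with no filter). Xaf1, an interferon-stimulated gene tied to apoptosis, stood at 86.9, 68.7, 94.1 and 102 in EMM and 79.3, 72.1, 84.2 and 46.1 in SOM. Those ranges overlapped, and Xaf1 was not called (-0.34, 95% interval -0.74 to 0.06, limma adjusted p = 0.116), except without EMM2 (-0.45, adjusted p = 0.0476).

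Levels of different members were compared per kilobase of transcript. Ifitm2 was the most abundant in both regions, with 5573 normalized counts per kilobase in EMM and 7197 in SOM, followed by B2m with 3262 and 2136 and Ifnar1 with 894 and 799.8. Next in EMM was Bst2 (611), which was only 246 in SOM, where Irf3 (709) took its place. At the low end, Nlrc5 reached 1.57 in EMM and 0.468 in SOM, and Ifit1 9.27 and 1.17. Mx1 (6.05) and Rsad2 (8.45) were also among the lowest in EMM, so the effectors spanned the whole range of levels.

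The 4 EMM libraries also differed among themselves. Over the 35 tested members EMM1 was the highest EMM library in 19 and EMM3 the lowest in 18. Among the 16 effectors, EMM1 was highest in 11 and lowest in 0, and EMM3 was lowest in 10. The EMM1 level was 3.42 times that of EMM3 for Isg15, 2.69 times for Ifit1 and 2.65 times for Nlrc5. It was 2.48 times for Ifit3 and 2.17 times for Gbp2, whereas it was 1.02 times for Ifnar1 and 1.03 times for Stat2. Among the other effectors the ratio was 1.78 to 1.81 for Rtp4, Usp18 and Oasl2, 1.38 for Mx1 and 1.30 for Parp14. It was 1.23 for Ifitm3, 1.19 for Rsad2, 1.11 for Ifit2, 1.10 for Bst2, 1.09 for Ifitm2, 0.959 for Ifitm1 and 0.923 for Xaf1. The summed interferon-stimulated genes outside the members, where abundant genes weigh most, had a ratio of 1.03. The coefficient of variation over the 4 EMM libraries was 50.6% for Isg15, 46.8% for Nlrc5 and 1.97% for Stat2. Those libraries together held 39 reads of Nlrc5, 80 of Ifit1, 90 of Ifit3 and 222 of Isg15, against 3648 of Stat2. Relative counting error is larger at few reads, and its part in these ratios was not tested. Between the same 2 libraries the summed macrophage markers had a ratio of 1.23, the endothelial markers 0.938, the red blood cell markers 0.354 and the immediate early genes 0.490. The part of these markers in the spread was not tested.

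**Figure D4:**
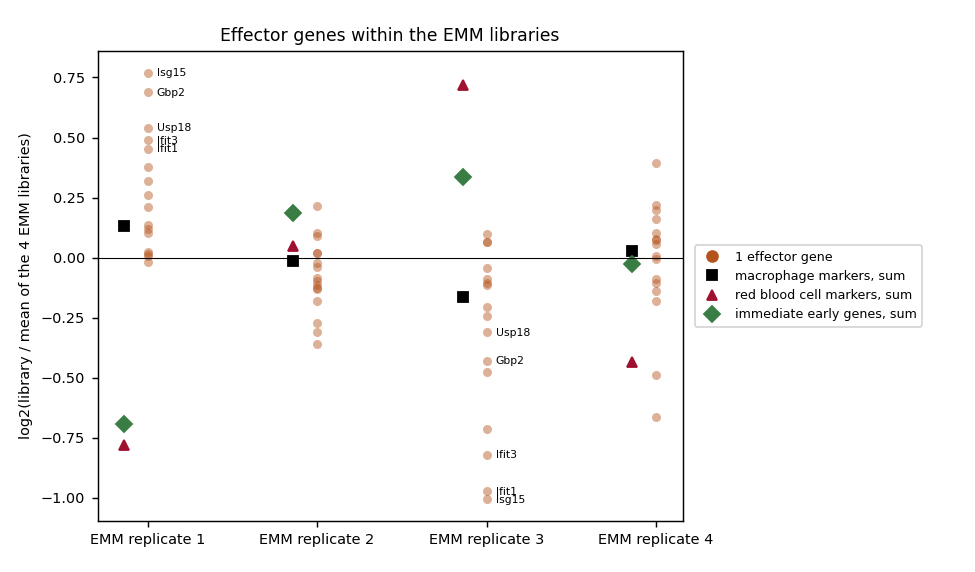
Level of each of the 16 effectors (circles) and of summed marker lists (other symbols) in the 4 EMM libraries, as log2 of the library over the mean of those 4. Isg15, Ifit1, Ifit3 and Gbp2 are highest in EMM1, the sum of 20 macrophage markers varies less than those single genes, and the red blood cell markers are highest in EMM3. Ifit1 and Ifit3 rest on 80 and 90 reads over the 4 libraries.

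Other genes of the pathway were counted from lists chosen by function. Of 55 tested interferon-stimulated genes outside the members, 45 were called higher in EMM (81.8%, against 36.1% of all tested genes), 3 higher in SOM (5.45%, against 36.0%) and 7 not. In 10 of the 55 all 4 EMM libraries but fewer than 4 SOM libraries reached 10 normalized counts. Without those 10, 35 of 45 were called higher in EMM. The RNA-binding ADP-ribosyltransferase Parp12 stood at 657 ± 68.4 in EMM and 189 ± 5.87 in SOM (n = 4 each; -1.79, limma adjusted p = 2.14e-11), and Tor3a at 244 ± 19.4 and 44.5 ± 7.47 (-2.44, limma adjusted p = 2.46e-10). Ogfr (0.34, limma adjusted p = 2.05e-05) and the histone chaperone gene Daxx (0.39, limma adjusted p = 3.16e-05) were higher in SOM.

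Of 18 other receptor and signalling genes, 14 were called higher in EMM (77.8%, against 36.1% of all tested genes), 2 higher in SOM (11.1%, against 36.0%) and 2 not, with a median of -0.49. The phosphatase gene Ptpn6 stood at 494 ± 28.4 in EMM and 165 ± 19.7 in SOM (n = 4 each; -1.58, limma adjusted p = 3.48e-10), and Stat3 at 1841 ± 38.7 and 882 ± 82.6 (-1.07, limma adjusted p = 4.12e-10). Higher in SOM were Socs1, a feedback inhibitor of the kinases below the receptor (165 ± 9.61 and 243 ± 22.8; 0.55, limma adjusted p = 9.41e-05), and the lambda interferon receptor gene Ifnlr1, whose groups overlapped (14.8 ± 5.94 and 28.7 ± 8.22; 0.94, limma adjusted p = 0.00698). Genes of class I processing outside the members were mixed. Of 20 tested, 9 were called higher in EMM, 6 higher in SOM and 5 not, with a median of -0.14. The chaperone gene Canx (-0.53, limma adjusted p = 7.40e-08) and the peptide-trimming enzyme gene Erap1 (-1.21, limma adjusted p = 2.94e-07) were higher in EMM. Rfxank (0.67, limma adjusted p = 4.81e-08) and Rfx5 (0.49, limma adjusted p = 7.90e-07), subunits of a complex that binds MHC promoters, were higher in SOM.

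**Figure D5:**
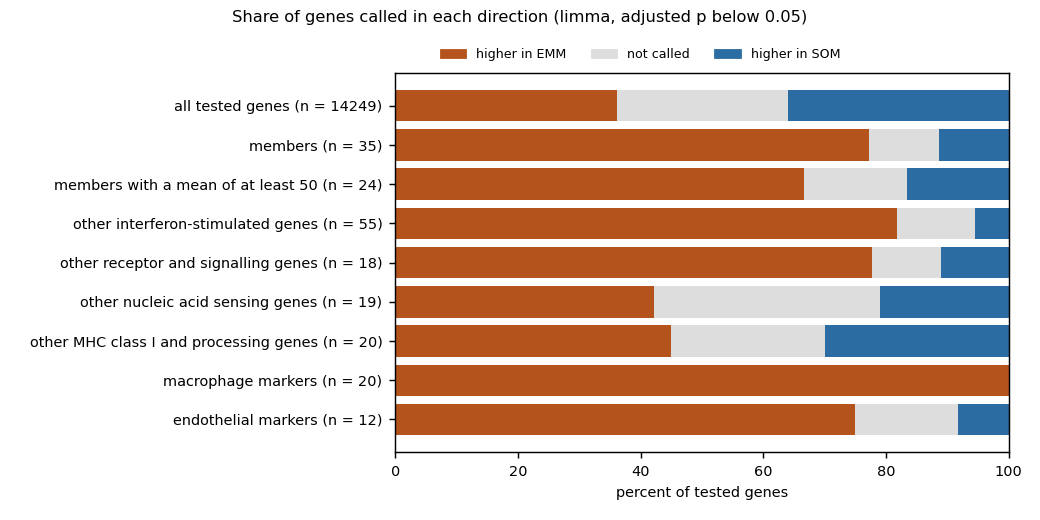
Percent of tested genes called higher in EMM, not called and called higher in SOM by limma (adjusted p below 0.05), for all genes, the members and related or cell type lists. Members reach 77.1% higher in EMM against 36.1% of all genes, and all 20 macrophage markers are higher in EMM.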

How the data were processed

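The authors deposited a table of 23420 genes; per the submitters' processing notes it was made with bcl2fastq, STAR and DESeq2 on mm10, while versions, annotation, counter and use of strand are not given there. Its 8 library columns hold signal, deposited as normalized counts (reads divided by a size factor). The authors' log2 fold change, Wald score and p-value columns were checked for direction, and only their adjusted p-value for Nlrc5 is quoted. All values (100%) were whole multiples of 1 read within 1 ppm, so reads were recovered. Genes with at least 10 normalized counts in at least 4 libraries were kept (14249; 4477 genes were at 0 everywhere). The log2(normalized count + 1) values, whose differences understate changes at low levels, were fitted with limma 3.58.1 in R 4.3.3 (trend, robust, all 8 libraries, no covariate). Benjamini-Hochberg adjustment covered all tested genes, with calls at 0.05. The p-values measure only the spread between pools, and counts of reads without molecular identifiers carry counting error.

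The members and lists were chosen with earlier results of these data known. All members were named, with the standard proteasome subunits and, per related list, the 2 genes of lowest adjusted p, below 0.05, in each direction; 1 further gene that the rule names is not reported here. Coordinates and transcript lengths came from GENCODE M21 (GRCm38), promoters from RefSeq. The fit was also run on simulated counts with few changed genes and a common spread for all genes. These data differ from that setting, so the run does not give the error rate here. No 2 libraries of a group agreed within sampling noise (chi-square per gene 3.72 to 19.1). Same-numbered EMM and SOM libraries did not deviate together (correlations -0.02 to 0.13), so the numbers were not treated as pairs. Alternatives used edgeR 4.0.16, DESeq2 1.42.0 and limma-voom on recovered reads, other pseudocounts, filters and scaling, a replicate block and left-out libraries.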

Additional observations from a re-analysis of the deposited data

Results flagged for a closer look

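In 7 of the 72 groups of 4 libraries (36 members in 2 regions) a single library stood farther from the other 3 than Dixon's 95% critical value allows, and chance gives about 1 in 20. EMM3 was low for 3 of them. B2m was 2470.3 there, against 2885 to 2952 in the other EMM libraries. Tap2 was 48.1, against 59.2 to 61.5, and Rtp4 was 52.3, against 93.0 to 99.4. Usp18 was high in EMM1 (60.3, against 33.5 to 37.7) and Ifih1 in EMM2 (204, against 161 to 168). In SOM, Psmb9 was high in SOM2 (19.6, against 12.6 to 12.8) and Irf1 in SOM4 (704, against 255 to 264).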

How the results depend on the processing

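The count of members higher in EMM, 27 of 35, stayed at 27 with either pseudocount, edgeR, DESeq2 and limma-voom, was 28 of 36 without a filter and 25 with upper quartile scaling. It was 17 of 25 with a filter at 50 and 16 of 24 for a mean of at least 50, chosen after seeing the data, both of which test fewer genes. Leaving out single libraries gave 21 to 27, with 31 members tested where an EMM library was left out, and leaving out EMM2, EMM3 and SOM4 gave 19 of 29. Members higher in SOM numbered 4 under every alternative run. Over all genes the counts toward EMM and SOM were 5468 and 5441 of 18943 without a filter. They were 4888 and 5510 of 14249 with upper quartile scaling and 4624 and 4636 of 12337 with a filter at 50. Without EMM1 they were 4767 and 4894 of 14014, and without EMM2 4836 and 4947 of 14019. A replicate block gave 27 and 4 members and 5146 and 5103 of all genes, against 5149 and 5129, and changed no member's call. In 28 of 35 members neither call nor direction changed under any of up to 18 alternatives. Of the 2 members whose direction reversed, both uncalled, Irf1 was 0.080 with DESeq2 and 0.11 with edgeR and ran from -0.43 to 0.060 over single left-out libraries (-0.49 without EMM2, EMM3 and SOM4); Tap1 was 0.0081 with limma-voom and 0.0099 with upper quartile scaling and ran from -0.20 to 0.12 (-0.32 without those 3). The cause was not tested. Depth limits Nlrc5, Gbp2 in SOM and Ifit1 in SOM, which rest on few reads.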

Other observations

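MHC class II genes, which present peptides to helper T cells, were mostly near the detection limit. Of 10 listed genes 5 were tested, of which 1 was called higher in EMM, 2 higher in SOM and 2 not. H2-Ab1, a class II beta chain gene, stood at 2.04, 3.61, 1.05 and 4.04 normalized counts in EMM and 13.9, 23.1, 22.3 and 23.4 in SOM (log2 difference 2.61). It reached 10 normalized counts in all 4 SOM libraries and in no EMM library. It thus had to differ to be tested, and no p is given for it. H2-DMa, which helps to load class II molecules, stood at 90.2 ± 6.42 in EMM and 146 ± 11.5 in SOM (n = 4 each; 0.69, limma adjusted p = 5.55e-05), and H2-DMb1 at 26.7 ± 7.83 and 17.1 ± 1.31 (-0.58, limma adjusted p = 0.0399). The class II alpha chain gene H2-Aa, named after its values were seen, stood at 1.10 ± 1.45 and 3.17 ± 1.57 and was not tested.

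Nucleic acid sensing genes outside the members were mixed. Of 19 tested, 8 were called higher in EMM (42.1%, against 36.1% of all tested genes), 4 higher in SOM (21.1%, against 36.0%) and 7 not. Their median was -0.12. Ifi204, of the DNA-sensing Ifi200 family, stood at 110.0 ± 7.34 in EMM and 16.7 ± 3.10 in SOM (n = 4 each; -2.66, limma adjusted p = 1.70e-09), and the endosomal RNA sensor gene Tlr7 at 111 ± 30.0 and 22.6 ± 4.23 (-2.23, limma adjusted p = 6.44e-08). Higher in SOM were the adaptor gene Traf3 (1003 ± 57.6 and 1275 ± 33.7; 0.35, limma adjusted p = 3.26e-05) and Trex1, an exonuclease that degrades cytosolic DNA (216 ± 20.9 and 344 ± 55.0; 0.66, limma adjusted p = 9.97e-05).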
